A study of Homo sapiens with 6 samples.

Results

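Aminoacyl-tRNA synthetases are the enzymes that load each transfer RNA with its amino acid, and 35 of their genes were followed in K562 cells with and without overexpression (OE) of the RNA-binding protein PCBP1. The genes were chosen by name, as 19 enzymes of the cytosol (symbols ending in 1, with FARSA and FARSB) and 16 of the mitochondrion (symbols ending in 2), out of 62252 genes in the files. K562 is a human erythroleukemia line, and the cells here carry a doxycycline (Dox) inducible Flag-PCBP1 cassette brought by recombinase exchange into the AAVS1 safe-harbor locus of a clone. There were 3 libraries of polyA RNA without Dox (−Dox) and 3 with it (+Dox). Every library comes from cells with the cassette, so that Dox itself and Flag-PCBP1 cannot be told apart, and no dose or duration of Dox is given for the RNA sequencing in the sources used here. The labels number the replicates without saying whether they are separate cultures, so p-values measure the spread between these libraries, which may be technical. In −Dox replicates 1, 2 and 3 the estimated counts summed to 84177316, 80104627 and 74766040, and in the +Dox replicates to 70905656, 82263502 and 82449808.

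Cytosolic protein synthesis and the translation of the few proteins encoded in mitochondrial DNA use separate sets of tRNAs. Most amino acids therefore have one synthetase gene for each compartment, while KARS1 and GARS1 make an enzyme for both from a single gene. EPRS1 joins the glutamate and the proline enzyme in one protein, and FARSA and FARSB are the subunits of one phenylalanine enzyme. Several cytosolic enzymes are held in a multi-synthetase complex, and many are transcribed under ATF4, the transcription factor of the integrated stress response. The enzymes fall into class I and class II by the fold of their catalytic domain. Erythroid cells depend on a steady supply of charged tRNA for globin synthesis.

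Counts are given as CPM (counts scaled to a common library size) after TMM normalization, which corrects for library composition. Levels of different genes are compared only in TPM, which is also scaled for transcript length. PCBP1 itself measured 156, 158 and 163 TPM in −Dox and 596, 582 and 600.4 TPM in +Dox. All +Dox libraries lay above all −Dox libraries, with a log2 fold change of 1.94 ± 0.06 (SE, n = 3 and 3, adjusted p = 5.22e-10, edgeR), as the labels state. An antisense gene overlaps 73.2% of the PCBP1 exons. The red cell markers of K562 were present, with HBG1 at 6253 and HBG2 at 9789 TPM in −Dox on average. Of markers of other cell types, CD3D (49.9 TPM), KRT8 (203 TPM) and EPCAM (36.7 TPM) were detected in −Dox, whereas CD3E, MS4A1, COL1A2, DCN, CDH1 and KRT5 were below the count filter and MS4A1 had 0 counts in all 6 libraries. Among the red cell markers reported here, KLF1 (log2 fold change 0.46) and TAL1 (0.44) rose and HBZ (-0.40) and TFRC (-0.34) fell (adjusted p at most 0.00213, edgeR). The part of this red cell shift in the synthetase values was not tested.

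All 35 synthetase genes passed the filter of a mean count above 10. Of them 12 fell at an adjusted p under 0.05, none rose, and 23 did not pass the test. At an unadjusted p under 0.05, 2 were higher (QARS1 and TARS2), and DESeq2 also called 0 higher. Over all 21045 genes tested, 7.68% were called lower and 8.16% higher. Of the 8730 genes with a mean count of at least 1000, a range in which all of the members but PARS2 lie, 14.3% were called lower. A differentially expressed gene (DEG) has an absolute log2 fold change above 1 and an adjusted p under 0.05. No synthetase met this limit, which 1.46% of all genes met. The members' median log2 fold change was -0.10, against 0.01 for all genes, and 27 of the 35 values were below 0. With 16 genes the +Dox libraries all lay below the −Dox libraries, and with 2 they all lay above. Over all genes tested these shares were 15.8% and 17.4%, and among genes with a mean count of at least 1000 the first was 24.2%. In bulk RNA, fewer cells that express a gene and less RNA per cell cannot be told apart.

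**Figure D1:**
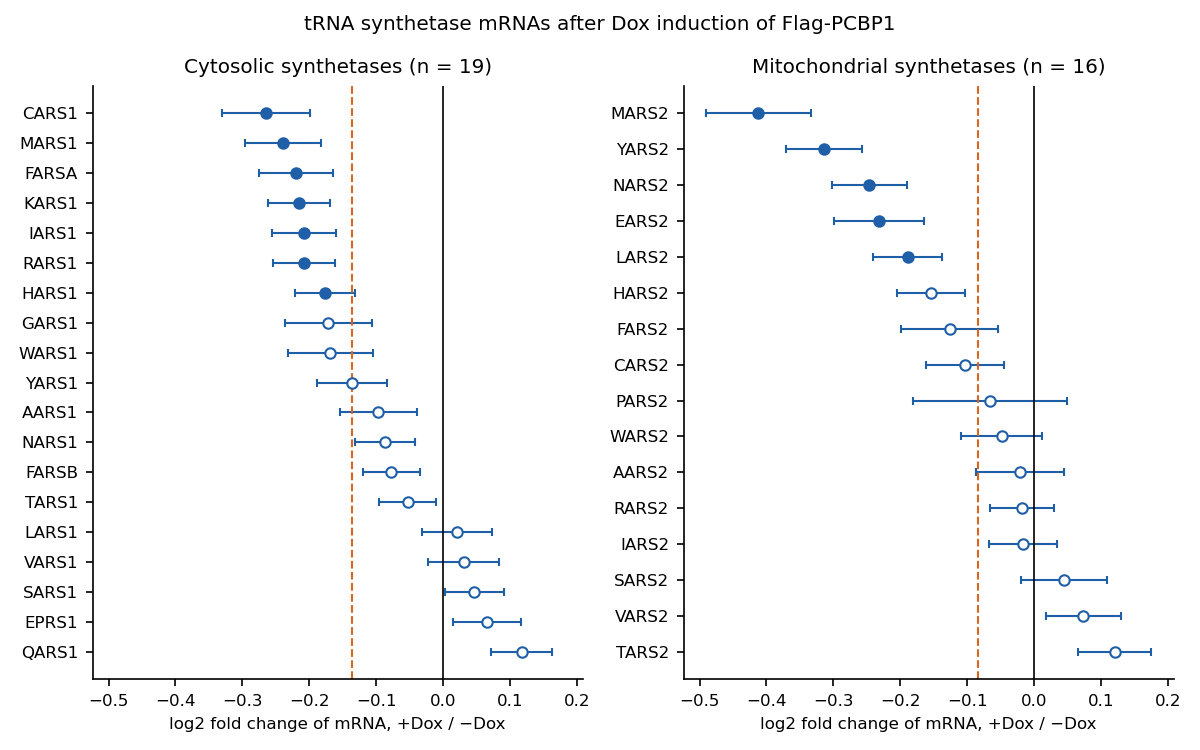
Each point is the log2 fold change of one gene in +Dox against −Dox with its SE (3 libraries per group), for the 19 cytosolic genes on the left and the 16 mitochondrial genes on the right. Filled points passed an adjusted p of 0.05, the dashed line is the median of each panel (-0.14 and -0.08), and all filled points lie below 0.

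Of the cytosolic enzymes 7 of 19 fell and none rose, with a median log2 fold change of -0.14, or -0.0846 without −Dox replicate 1. The 7 are KARS1, RARS1, IARS1, MARS1, CARS1, FARSA and HARS1, which charge lysine, arginine, isoleucine, methionine, cysteine, phenylalanine and histidine tRNAs. KARS1 (chromosome 16, minus strand, 75627474 to 75648643 on GRCh38) measured 345, 363 and 343 CPM in −Dox and 306, 290.2 and 310.2 CPM in +Dox. Its groups did not overlap, and it fell by 13.9% (log2 fold change -0.22 ± 0.05, SE, n = 3 and 3, adjusted p = 0.0072, edgeR). RARS1 (chromosome 5, plus strand, 168486451 to 168519301) measured 169, 173 and 174 CPM in −Dox and 145, 146 and 156 CPM in +Dox. The −Dox libraries were close together and all above the +Dox libraries (log2 fold change -0.21 ± 0.05, adjusted p = 0.00876, edgeR).

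IARS1 (chromosome 9, minus strand, 92210207 to 92293854) measured 596, 546 and 545 CPM in −Dox and 486, 491 and 484 CPM in +Dox. The first −Dox library was the highest and the groups did not overlap (log2 fold change -0.21 ± 0.05, adjusted p = 0.00985, edgeR). MARS1 (chromosome 12, plus strand, 57475445 to 57517569) measured 139.6, 119.6 and 132 CPM in −Dox and 111, 109 and 111 CPM in +Dox. The −Dox libraries spread more widely than the +Dox libraries but stayed above them (log2 fold change -0.24 ± 0.06, adjusted p = 0.0118, edgeR). CARS1 (chromosome 11, minus strand, 3000922 to 3057613) measured 78.5, 64.6 and 72.3 CPM in −Dox and 60.9, 58.7 and 59.7 CPM in +Dox. It had the lowest log2 fold change of the cytosolic genes (-0.26 ± 0.07, adjusted p = 0.0153, edgeR), with a narrow gap between −Dox replicate 2 and +Dox replicate 1.

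FARSA (chromosome 19, minus strand, 12922479 to 12934037) measured 107, 119 and 119 CPM in −Dox and 103, 94.2 and 98.6 CPM in +Dox. All +Dox libraries were lower (log2 fold change -0.22 ± 0.05, adjusted p = 0.0161, edgeR). FARSB, which encodes the other subunit of this enzyme, also had groups that did not overlap, with a log2 fold change of -0.08 that did not pass the test. HARS1 (chromosome 5, minus strand, 140673035 to 140691537) measured 115, 115 and 114 CPM in −Dox and 105, 101 and 98.7 CPM in +Dox. The −Dox values were nearly equal and above all +Dox values (log2 fold change -0.18 ± 0.05, adjusted p = 0.0182, edgeR). Exons of genes on the opposite strand overlap 4.34% of the KARS1 exons (TERF2IP), 7.7% of the HARS1 exons (WDR55) and 7.38% of the MARS1 exons (ARHGAP9), and the strand setting of the counting is not given in the sources used here.

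GARS1, the glycine enzyme of both compartments, measured 232, 190.3 and 200.3 CPM in −Dox and 188, 182 and 183 CPM in +Dox. Its groups did not overlap, −Dox replicate 1 stood high, and the adjusted p was 0.0948 (log2 fold change -0.17, edgeR). WARS1, the tryptophan enzyme, measured 129.8, 108 and 114 CPM in −Dox and 109, 101 and 104 CPM in +Dox. The groups overlapped (log2 fold change -0.17, adjusted p = 0.094, edgeR). Among the other cytosolic genes, the log2 fold change lay between -0.14 for YARS1 and 0.12 for QARS1, the glutamine enzyme. In QARS1 all +Dox libraries lay above all −Dox libraries, but the adjusted p was 0.107 (edgeR). NARS1 (-0.09) had +Dox libraries that were all lower without passing the test, and AARS1 (-0.10), TARS1 (-0.05), LARS1 (0.02), VARS1 (0.03), SARS1 (0.05) and EPRS1 (0.07) overlapped between the groups.

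Of the mitochondrial enzymes 5 of 16 fell and none rose, with a median log2 fold change of -0.08, or -0.145 without +Dox replicate 1. They are MARS2, YARS2, NARS2, EARS2 and LARS2, which charge methionine, tyrosine, asparagine, glutamate and leucine tRNAs. MARS2 (chromosome 2, plus strand, 197705369 to 197708395) measured 20.7, 25.6 and 22.3 CPM in −Dox and 16.7, 17.1 and 17.7 CPM in +Dox. The groups did not overlap, and it fell by 24.9%, the lowest fold change among the 35 genes (log2 fold change -0.41 ± 0.08, SE, n = 3 and 3, adjusted p = 0.00334, edgeR). YARS2 (chromosome 12, minus strand, 32727490 to 32755897) measured 38.5, 38.0 and 36.1 CPM in −Dox and 30.8, 28.7 and 31.1 CPM in +Dox. It fell by 19.5% with well separated groups and had the smallest adjusted p of the members (log2 fold change -0.31 ± 0.06, adjusted p = 0.00246, edgeR). An unnamed gene on the other strand overlaps 18.1% of its exons.

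NARS2 (chromosome 11, minus strand, 78435620 to 78575194) measured 44.8, 45.2 and 41.6 CPM in −Dox and 35.3, 37.8 and 37.8 CPM in +Dox. All +Dox values were lower (log2 fold change -0.25 ± 0.06, adjusted p = 0.01, edgeR). LARS2 (chromosome 3, plus strand, 45388561 to 45554726) measured 48.1, 46.3 and 45.5 CPM in −Dox and 41.8, 40.8 and 40.2 CPM in +Dox. The groups were separate (log2 fold change -0.19 ± 0.05, adjusted p = 0.0244, edgeR). EARS2 (chromosome 16, minus strand, 23520754 to 23557731) measured 32.8, 31.2 and 28.3 CPM in −Dox and 27.9, 25.4 and 25.3 CPM in +Dox. The gap between −Dox replicate 3 and +Dox replicate 1 was small, and the adjusted p was 0.0348 (log2 fold change -0.23 ± 0.07, edgeR).

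HARS2, the mitochondrial histidine enzyme, measured 41.2, 41.8 and 43.0 CPM in −Dox and 37.3, 37.5 and 38.4 CPM in +Dox. Its groups did not overlap, with an adjusted p of 0.0576 (log2 fold change -0.15, edgeR). TARS2, the threonine enzyme, was higher in all +Dox libraries, but with an adjusted p of 0.168 (log2 fold change 0.12, edgeR). The log2 fold changes of FARS2 (-0.13), CARS2 (-0.10), PARS2 (-0.07), WARS2 (-0.05), AARS2 (-0.02), RARS2 (-0.02), IARS2 (-0.02), SARS2 (0.05) and VARS2 (0.07) did not pass the test, and their groups overlapped. Other annotated genes on the same strand share 63% of the VARS2 exons and 48.2% of the SARS2 exons, so that their counts are uncertain.

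**Figure D2:**
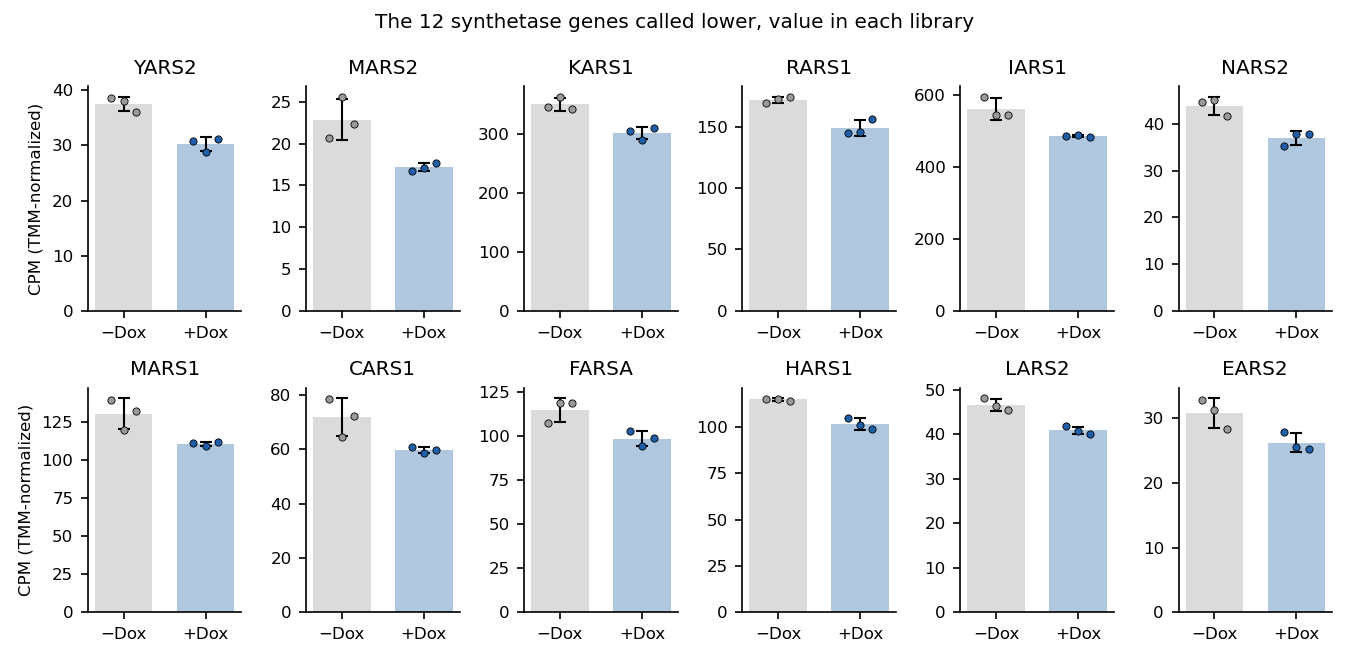
Each panel shows one of the 12 genes that fell, with the CPM of each library as a point, the group mean as a bar from 0 and its SD as the error bar (3 libraries per group). In every panel the 3 +Dox points lie below the 3 −Dox points.

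The count of cytosolic genes that fell was 5 without −Dox replicate 3, 4 without +Dox replicate 2 and 4 without +Dox replicate 3, and it was 3 with an offset for average transcript length. The mitochondrial count was 3 on leaving out replicate 1 or 2 of −Dox, or replicate 2 or 3 of +Dox, and 3 with the length offset. KARS1, RARS1, MARS2 and YARS2 passed the test in all 14 settings run, and CARS1, FARSA, HARS1, LARS2 and EARS2 lost it in at least one fit without 1 library. With the length offset CARS1, FARSA, HARS1, EARS2, MARS1 (adjusted p = 0.196, edgeR) and NARS2 (adjusted p = 0.157, edgeR) lost it.

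By place in the cell's machinery, 4 of the 7 enzymes of the multi-synthetase complex fell (IARS1, KARS1, MARS1 and RARS1) and 3 of the 12 other cytosolic enzymes. LARS1, EPRS1 and QARS1 of the complex did not pass the test. The 3 scaffold proteins of the complex, AIMP1 (-0.03), AIMP2 (-0.08) and EEF1E1 (-0.07), did not pass it either. Of 13 cytosolic synthetases listed as ATF4 targets 3 fell (CARS1, IARS1 and MARS1), with a median log2 fold change of -0.10, and of the 6 others 4 fell, with a median of -0.19. −Dox replicate 1 was the highest −Dox library in 11 of the 13 and in 1 of the 6, against 36.6% of all genes tested. Without it 3 and 4 genes were called lower, with medians of -0.07 and -0.20, and its part in these values was not tested. By catalytic fold, 8 of 18 class I and 4 of 16 class II enzymes fell. EPRS1 holds both folds and was left out of that count. No difference between these groups was tested.

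The cytosolic genes were the more abundant. In −Dox, TARS1 had the highest level at 307 ± 9.37 TPM (SD, n = 3), followed by KARS1 (179 TPM), SARS1 (156 TPM) and NARS1 (127 TPM). The highest mitochondrial gene was IARS2 at 67.8 ± 4.90 TPM, and the lowest was PARS2 at 2.57 ± 0.20 TPM. In each of 17 pairs of cytosolic and mitochondrial enzymes for one amino acid, the cytosolic gene had the higher mean TPM in −Dox. The ratio ran from 1.23 for FARSB against FARS2 to 45.9 for EPRS1 against PARS2, with a median of 7.02 in −Dox and 6.99 in +Dox.

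**Figure D3:**
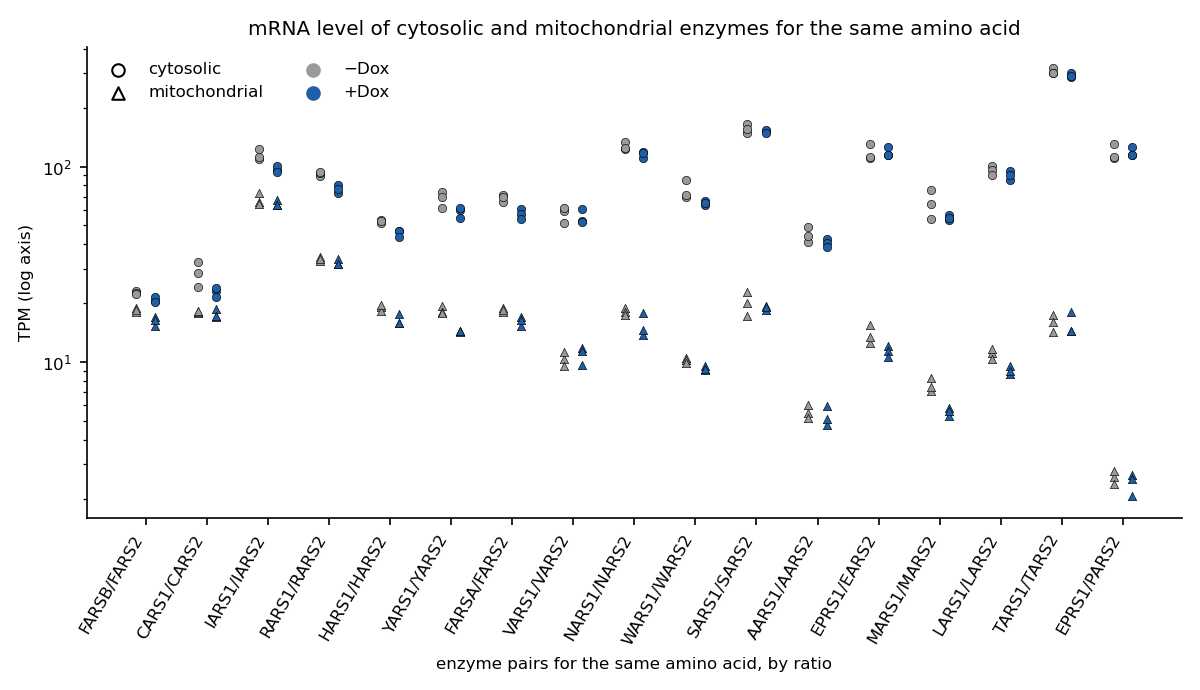
TPM on a log axis for each pair of cytosolic (circles) and mitochondrial (triangles) enzymes that charge the same amino acid, with −Dox libraries in grey and +Dox libraries in blue, ordered by their ratio in −Dox. EPRS1 and FARS2 appear in 2 pairs each. The circles stand above the triangles in every pair, from a ratio of 1.23 at the left to 45.9 at the right.

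Summed over the 19 cytosolic genes, the level was 1816 ± 83.9 TPM in −Dox and 1651 ± 41.9 TPM in +Dox (SD, n = 3 each), a change of -9.07%. Over the 16 mitochondrial genes it was 290.4 ± 10.3 and 266 ± 10.7 TPM, a change of -8.46%. The ratio of the sums was 6.25 ± 0.13 in −Dox and 6.21 ± 0.09 in +Dox, a difference smaller than the spread between libraries. Summed CPM gave -5.62% and -5.30%. Within pairs, the TPM ratio was lower in all +Dox than in all −Dox libraries for CARS1 against CARS2, IARS1 against IARS2 and RARS1 against RARS2. It was higher in all +Dox libraries for LARS1 against LARS2 and for EPRS1 against EARS2. These are 3 and 2 of the 17 pairs. No such share was computed for other pairs of genes, so the ratios are a description.

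KARS1 makes its 2 enzymes from alternative transcripts, of which one encodes 597 residues (the cytosolic form) and the other 625 residues (the mitochondrial form). The cytosolic transcript measured 152, 152 and 150.1 TPM in −Dox and 128, 126 and 126 TPM in +Dox. All +Dox libraries were lower, and over all transcripts tested the adjusted p was 0.194 (log2 fold change -0.20, edgeR). The mitochondrial transcript measured 18.8, 17.4 and 17.7 TPM in −Dox and 13.6, 17.7 and 16.9 TPM in +Dox, and the groups overlapped (log2 fold change -0.10, adjusted p = 0.845, edgeR). A shorter coding transcript of 256 residues averaged 1.76 TPM in −Dox and 1.54 TPM in +Dox. The mitochondrial form took 10.4% ± 0.27 of the coding TPM of KARS1 in −Dox and 11.1% ± 1.49 in +Dox (SD, n = 3 each). The difference of 0.63 percentage points was within the spread (two-sided exact permutation test, p = 0.5, the smallest possible being 0.1).

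Among transcripts of the 35 genes, 397 of 663 were abundant enough to test and none passed an adjusted p of 0.05 in edgeR, where 0.204% of all 86178 transcripts did. At an unadjusted p under 0.05, 25 were lower and 9 higher, which is 8.56%, against 10% of all transcripts. The most abundant transcript was the reference transcript of the MANE set in 31 genes and a coding one in 34, with EARS2 as the exception. The share of a gene's TPM on its coding transcripts was examined after the values were seen, in 33 members with transcripts of both kinds and a mean count of at least 1000. LARS1 carried 63.1%, 60.1% and 64.8% on coding transcripts in −Dox and 70.4%, 73.6% and 73.9% in +Dox. LARS2 carried 71.5%, 69.7% and 65.2% in −Dox and 74.3%, 84.6% and 75.1% in +Dox. In both genes every +Dox library was higher. The same held for AARS1 (67.3% and 73.4% on average), SARS1 (70.7% and 76.3%), YARS1 (73.2% and 78.0%) and GARS1 (87.6% and 89.4%), so for 6 of the 33, where 8.92% of 7554 genes had such shares. TARS1 was lower in all +Dox libraries (88.5% and 86.5%), where 4.33% of genes were. With TPM pooled over all protein-coding genes, the coding share was 89.2% in −Dox and 89.8% in +Dox, and retained-intron transcripts took 5.17% and 4.85%. Pooled in the same way over the 35 synthetase genes, the coding share was 81.0% and 82.2%, and retained-intron transcripts took 11.2% and 10.9%. Pooled shares weigh genes by their level, unlike the shares per gene above.

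**Figure D4:**
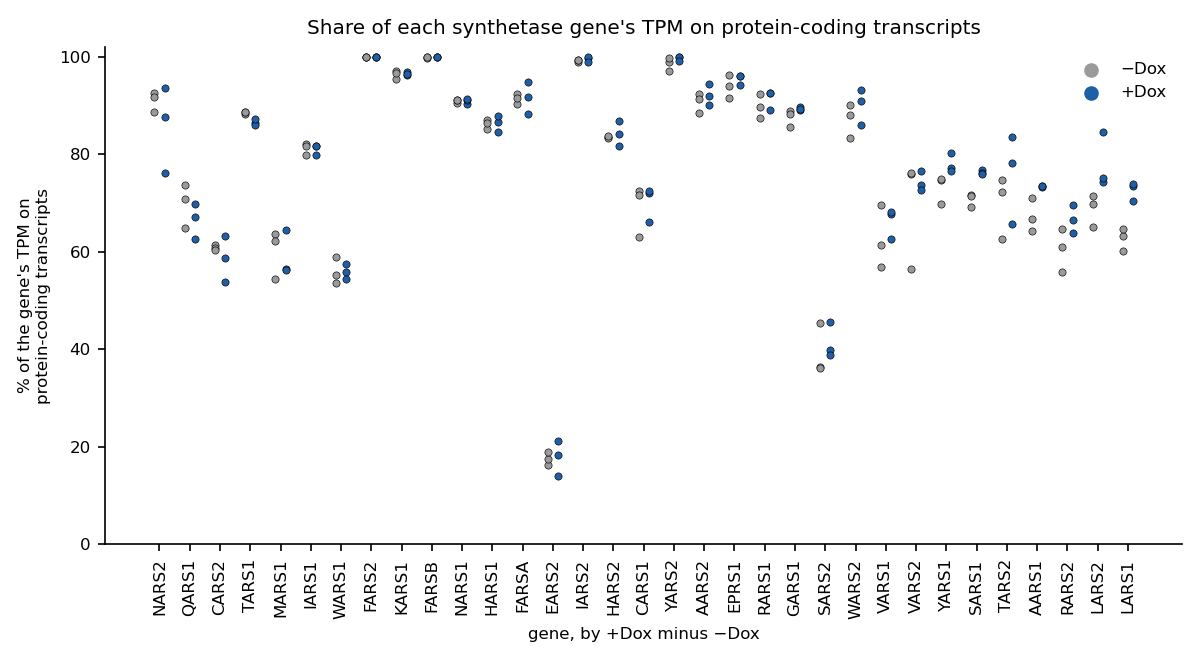
Percent of each gene's TPM on protein-coding transcripts in each −Dox (grey) and +Dox (blue) library, for 33 genes ordered by the difference between the group means. At the right end LARS1 moves from 62.7% to 72.6%, and EARS2 is the lowest gene at 17.5% in −Dox.

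Upstream sequence was read from RefSeq promoter windows on GRCh38.p14, found for 30 of the 35 genes and not for AARS2, LARS1, VARS1, VARS2 and YARS1. The 250 bases before each RefSeq start were searched on both strands for 4 motifs, chosen after the values were seen. CCGGAAG, the core of ETS factor sites, occurred in 16 of the 30 genes, against 10.2% of all genes and 22.7% of genes with a mean count of at least 1000. TGATGNAA, a core of the C/EBP-ATF response element that ATF4 binds, occurred in AARS1, GARS1, IARS1 and YARS2 (3.89% and 1.97% of the same gene sets). The palindromic NRF1 motif occurred in IARS2, MARS2, SARS1 and TARS1 (6.2% and 14.4%), and CACGTG, the E-box, in EARS2, IARS1 and MARS2 (7.73% and 11.8%). A match says only that these letters are in the window. The stretches shown are printed 5′ to 3′, with matches on either strand in capitals. The first lies between the MANE transcript starts of HARS1 and HARS2, a head-to-head gene pair whose +Dox libraries were lower for both genes, and holds 2 ETS matches (chr5:140691371-140691454, 84 bases, plus strand). The next are the 250 bases before MARS2, the gene with the lowest fold change (chr2:197705119-197705368, plus strand), before CARS1, the cytosolic gene with the lowest (chr11:3057424-3057673, minus strand), and before IARS1, which fell and has the TGATGNAA match (chr9:92293698-92293947, minus strand). The starts are those of RefSeq. The GENCODE spans of HARS1, HARS2, CARS1 and IARS1 reach farther upstream, so that the HARS1-HARS2 stretch lies within the span of HARS1 and partly within that of HARS2, and the CARS1 and IARS1 stretches, the TGATGNAA match included, lie partly within their own genes.
HARS1-HARS2: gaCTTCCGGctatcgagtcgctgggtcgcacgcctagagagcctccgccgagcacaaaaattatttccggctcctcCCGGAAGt
MARS2 upstream: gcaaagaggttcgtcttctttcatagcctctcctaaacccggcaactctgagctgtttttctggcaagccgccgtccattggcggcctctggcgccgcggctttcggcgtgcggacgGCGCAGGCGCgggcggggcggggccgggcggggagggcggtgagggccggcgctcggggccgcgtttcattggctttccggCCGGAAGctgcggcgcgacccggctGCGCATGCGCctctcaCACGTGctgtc
CARS1 upstream: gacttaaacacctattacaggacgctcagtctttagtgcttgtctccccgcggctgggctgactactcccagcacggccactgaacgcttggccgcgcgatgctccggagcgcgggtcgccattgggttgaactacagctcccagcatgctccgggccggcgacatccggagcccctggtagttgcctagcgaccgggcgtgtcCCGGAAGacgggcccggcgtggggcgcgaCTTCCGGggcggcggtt
IARS1 upstream: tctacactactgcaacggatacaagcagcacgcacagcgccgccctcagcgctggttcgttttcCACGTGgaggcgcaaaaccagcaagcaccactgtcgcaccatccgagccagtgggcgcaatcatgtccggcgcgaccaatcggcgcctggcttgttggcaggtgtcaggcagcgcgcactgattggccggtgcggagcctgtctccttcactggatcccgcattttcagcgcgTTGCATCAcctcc

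Some genes that act beside the synthetases in mitochondrial translation also fell. Of 4 genes for the amidation of mitochondrial glutaminyl-tRNA and for formylation of the initiator tRNA, the amidotransferase subunits QRSL1 (-0.20) and GATC (-0.19) fell. GATC shares 39.1% of its exons with SRSF9 on the other strand. Neither passed the test without −Dox replicate 2, without +Dox replicate 2 or with the length offset, and QRSL1 also lost it without −Dox replicate 3 or +Dox replicate 1. Of 11 genes of mitochondrial tRNA maturation 5 fell and none rose (median -0.14), which are PUS1 (-0.35), GTPBP3 (-0.27), TRMU (-0.27), TRMT10C (-0.25) and ELAC2 (-0.22). PUS1 forms pseudouridine, GTPBP3 and TRMU modify the wobble base, TRMT10C belongs to mitochondrial RNase P, and ELAC2 trims the 3′ end. Of 11 mitochondrial translation factors 3 fell (median -0.12), the elongation factor TUFM (-0.26), the recycling factor MRRF (-0.24) and the initiation factor MTIF2 (-0.19). MTIF2 lost its call without +Dox replicate 2 (adjusted p = 0.0553, edgeR), and ELAC2 without −Dox replicate 2 or +Dox replicate 3. With the length offset MRRF (-0.16, adjusted p = 0.115), GTPBP3 (adjusted p = 0.0504) and TRMU (adjusted p = 0.055) lost theirs in edgeR. The values in brackets are log2 fold changes from the same edgeR fit.

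None of 6 cytosolic elongation factor genes passed the test (median 0.05), nor did any of 6 genes of tRNA proofreading and export (median -0.05). EEF1A1, which delivers charged tRNA to the ribosome, did not pass it at 0.11 on the log2 scale (edgeR, adjusted p = 0.127). EIF5A, which has the smallest p in its list, was at -0.17 (edgeR, adjusted p = 0.0573). Those counts of 0 stand beside 3 elongation factor genes, and 1 gene of proofreading and export, at an unadjusted p under 0.05, and DESeq2 called EIF5A lower. No list was compared with another by a test.

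Of 30 ATF4 targets outside the synthetases 12 fell and 1 rose, with a median log2 fold change of -0.15. Of 6 genes of amino acid transporters in the list, SLC7A5 (-0.67), SLC38A2 (-0.54) and SLC7A1 (-0.34) fell, and SLC7A11 (-0.35), SLC3A2 (-0.10) and SLC1A5 (-0.08) did not pass the test. SLC7A11 measured 47.7, 27.7 and 29.6 CPM in −Dox and 25.8, 28.5 and 27.9 CPM in +Dox, and without −Dox replicate 1, the high library, its log2 fold change was -0.06. −Dox replicate 1 was the highest −Dox library in 23 of these 30 genes (76.7%), against 36.6% of all genes tested, and its part in the values was not tested. Without it the median was -0.09, and 9 genes were called lower. Without +Dox replicate 1, and likewise without +Dox replicate 3, 8 of the 30 genes were called, as with the length offset. CHAC1, which degrades glutathione, was the only DEG among them (-1.91 ± 0.37, adjusted p = 0.00384, edgeR), and was scarce, with 2.03 ± 1.25 CPM without and 0.541 ± 0.07 CPM with Dox (SD, n = 3 each). Without −Dox replicate 1 its log2 fold change was -1.29. PCK2, a mitochondrial enzyme of gluconeogenesis, rose (0.33), though not with the length offset (adjusted p = 0.168, edgeR). Among stress-responsive genes ATF3 (-0.89), CEBPB (-0.30) and CEBPG (-0.23), which encode transcription factors, and STC2 (-0.86), which encodes a secreted glycoprotein, fell, and without −Dox replicate 1 they were at -0.61, -0.28, -0.15 and -0.61, where CEBPG did not pass the test. CEBPG passed it in 1 of the 6 fits without 1 library. With the length offset CEBPB (adjusted p = 0.0746) and STC2 (adjusted p = 0.0768) lost the call in edgeR. ASNS, the asparagine synthetase (-0.06), and the stress factors DDIT3 (-0.04) and TRIB3 (0.01) did not pass it, ASNS and DDIT3 being at 0.07 and 0.0061 without that library, and exons of MARS1 overlap 27.2% of the DDIT3 exons.

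Of 9 regulators of the integrated stress response 3 fell and 2 rose. ATF4 mRNA averaged 237 ± 26.1 CPM without and 201 ± 10.7 CPM with Dox, a log2 fold change of -0.24 ± 0.07 (edgeR, adjusted p = 0.035). It passed in 1 of the 6 fits without 1 library, the one without −Dox replicate 2, and was at -0.15 without −Dox replicate 1. With the length offset its adjusted p was 0.125 (edgeR). GCN1, a partner of the amino acid sensor kinase, also fell (-0.24), as did the phosphatase subunit PPP1R15B (-0.19), and both lost the call with the length offset (adjusted p = 0.0516 and 0.0519, edgeR), PPP1R15B also without +Dox replicate 3. The log2 fold change of GCN1 was -0.57 with that offset. EIF2AK1, the heme-regulated kinase of eIF2 (0.34), and PPP1R15A, the inducible phosphatase subunit (0.32), rose.

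**Figure D5:**
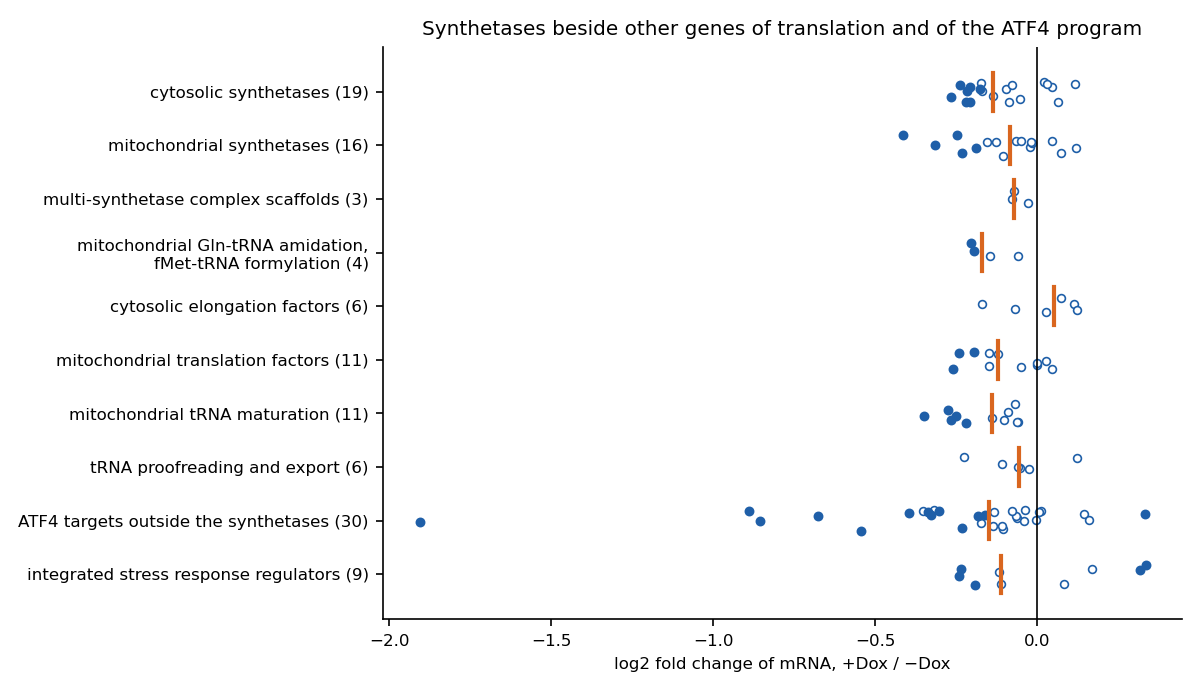
Each point is one gene's log2 fold change in +Dox against −Dox, filled where the adjusted p was under 0.05, with the number of genes in brackets and the median as an orange bar. Both synthetase groups sit between -0.41 and 0.12, while the ATF4 targets reach -1.91.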

How the data were processed

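Libraries of K562 polyA RNA, 3 −Dox and 3 +Dox, were grouped by the labels. The authors quantified 150-cycle paired-end reads with Salmon 1.10.2 (from the submitters' processing notes, with hg38) and deposited, per transcript and library, an estimated count, not normalized, and a TPM value, scaled by Salmon for effective length. The Salmon index and the strand setting are not given in the sources used here. Transcripts were matched to GENCODE 44 (251612 of 252045, 251142 with the same version), and estimated counts were summed per gene and rounded. The 21045 genes whose mean count exceeded 10 entered edgeR 4.0.16 (TMM, glmQLFit, glmQLFTest, two-sided) in R 4.3.3, with Benjamini-Hochberg adjustment over all of them. Each SE was taken as the absolute log2 fold change over the root of the F statistic. Replicates differed by more than counting error, the chi-square per gene being 8.161 to 17.5.

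Values in each library are given for the 14 members with the smallest p and for HARS1, HARS2, KARS1 and GARS1, and up to 4 genes by p from each other list, with ASNS, DDIT3, TRIB3, CHAC1 and ATF4. ELAC2, SLC7A11, SLC3A2, SLC1A5, ATF3, CEBPB, CEBPG, STC2 and the genes with exon overlaps were added with their values known. The members and lists were chosen with earlier results of these data known. The upstream motifs, the printed sequences, the coding share, the count of genes highest in −Dox replicate 1 and the comparison with genes of a mean count of at least 1000 were chosen after the values were seen. Alternatives were DESeq2 1.42.0, DESeq2-type size factors, 3 other count filters, a transcript length offset, each library left out, and the replicate number as a term. The gene test was run on simulated counts with 2-fold changes. A first limit for the share recovered over all genes was missed, fewer changes being recovered at low counts, and the limit was then set on genes with a mean count of at least 1000, where it was met. Changes as small as those of the synthetases were not simulated. Not every red cell marker is reported here. The iron chelation, PCBP1 KD and eCLIP data were not analysed here.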

Additional observations from a re-analysis of the deposited data

How the results depend on the processing

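Each of the 12 calls was below 0 in all 14 settings, and no member was called higher in any. The number of cytosolic genes called lower, 7, was 3 with an offset for average transcript length, 4 with a replicate block and 4 to 7 without 1 library, and the mitochondrial number, 5, was 3 with the length offset and 3 to 5 without 1 library. With the length offset, 1882 genes were called in all, against 3333. The cytosolic median log2 fold change, -0.14, was -0.17 with the length offset and -0.179 to -0.0846 without 1 library, and the mitochondrial median, -0.08, was -0.145 to -0.0692 without 1 library. The change in summed TPM was -10.8% to -6.69% (cytosolic) and -10.6% to -6.56% (mitochondrial) without 1 library, and the KARS1 share difference was 0.08 to 1.48 percentage points. DESeq2 called 10 cytosolic and 6 mitochondrial genes lower, with GARS1, WARS1, YARS1 and HARS2 added. The replicate block took the calls of FARSA, HARS1, IARS1 and LARS2. The replicate numbers did not pair the libraries, as deviations of same-numbered libraries correlated at -0.439, -0.445 and 0.136. Signs turned only in uncalled genes. With the length offset LARS1 was at -0.0555, SARS1 at -0.0103, VARS1 at -0.0200 and SARS2 at -0.0385. Without 1 library, LARS1 ran from -0.0221 to 0.0585, VARS1 from -0.0251 to 0.0724, AARS2 from -0.0789 to 0.0226, IARS2 from -0.0605 to 0.0296 and PARS2 from -0.156 to 0.0222. The cause of these shifts was not tested. PARS2, with 419 to 508 counts per library, is the least deeply covered member. Of the other lists, the length offset moved the number called from 13 to 8 (ATF4 targets), from 5 to 3 (stress regulators), from 5 to 3 (mitochondrial tRNA maturation) and from 2 to 0 (amidation and formylation, also 0 with the block). Among the ATF4 targets PSAT1, ALDH18A1, SESN2, CEBPB, STC2 and PCK2 lost the call with the offset. Among the stress regulators ATF4, GCN1 and PPP1R15B lost it. The numbers for both lists thus include calls made with the offset and not without it. Without 1 library the lowest numbers were 8, 3 and 0 for ATF4 targets, stress regulators, and amidation and formylation. DESeq2 called 5 mitochondrial translation factors instead of 3.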
